A study of Macaca mulatta with 24 samples.

Results

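Smoke-exposed cultures of macaque airway epithelium were compared at the end of a recovery week with the same animals' cultures after 1 day of exposure. The comparison covers 8 libraries, 4 animals at each time, and every gene with a normalized count of at least 10 in at least 4 of those libraries, which held for 13238 of the 35432 genes in the table. The cells were tracheobronchial epithelium from adult female rhesus macaques (Macaca mulatta), grown on Transwell inserts and differentiated at air–liquid interface in BEGM:DMEM (1:1) with retinoic acid. The 1-day smoke cultures received whole wood smoke, diluted, in 1 session of 6 hours. The recovery smoke cultures received such a session on each of 5 days in a row and were then kept for 7 days without exposure. Air cultures collected at the same times received filtered air on the same schedule, and with the smoke and air groups taken after 5 days the series holds 24 libraries. The ages of S1, S2, S3 and S4 were 5463, 2930, 2238 and 1128 days, and since each age belongs to 1 animal, age and animal cannot be told apart.

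Between the 2 smoke groups the number of sessions, the time since the last session and the days in culture all differ, and these cannot be told apart within smoke. The air cultures over the same interval share the days in culture and the handling. The change in air was therefore measured on the same 13238 genes, and the difference between the smoke change and the air change was tested in 1 fit over 16 libraries. Changes are log2 fold changes of normalized count + 1, recovery over 1 day, fitted with limma with the animal as a block. A gene is called when its Benjamini-Hochberg adjusted p over all 13238 genes is under 0.05. Such a fold understates the change of genes with low counts.

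Airway epithelium at an air–liquid interface is renewed by basal cells, which rest on the basement membrane through hemidesmosomes, hold to their neighbours through desmosomes and express keratin 5 and the transcription factor p63. Their descendants become secretory cells, which make mucins and defence proteins, or multiciliated cells, which first build many centrioles and then assemble motile cilia. Wood smoke carries polycyclic aromatic hydrocarbons that are ligands of the aryl hydrocarbon receptor (AHR), and oxidants and electrophiles that act on the NRF2 and chaperone pathways.

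The 8 libraries had normalized totals of 12.4 to 13.5 M and approximate depths of 10.1 to 15.1 M reads. Mitochondrially encoded genes took 6.02 to 6.39% of the normalized counts after 1 day and 3.57 to 5.07% at recovery, with no overlap, and their part in the results below was not tested. The epithelial genes CDH1, EPCAM, KRT7, KRT18 and KRT19 all passed the filter, while PTPRC (leukocytes), DCN (fibroblasts) and CDH5 (endothelium) were at 0 in all 8 libraries. Other genes of these cell types were below the filter but not at 0. After 1 day and at recovery COL1A1 (fibroblasts) had 5.92 to 24.6 and 0.982 to 10.2. TEK (endothelium) had 3.21 to 22.0 and 1.28 to 4.59, and CD3E (T cells) 0 to 3.42 and 1.06 to 2.72. Of 13 immune genes matched, 4 were tested and none was called, with summed levels of 2691 to 3612 after 1 day and 2975 to 5403 at recovery. The summed fibroblast and smooth muscle genes stood at 654 to 1018 and 633 to 929, and of 4 tested only COL3A1 was called, lower (-2.21, lost without S4 at adjusted p = 0.067). The summed endothelial genes stood at 1535 to 9319.6 and 7569.5 to 13595. Most of this was KDR, a VEGF receptor, the 1 of 4 tested that was called, with a rise of 1.20 ± 0.28 (SE, adjusted p = 0.019) that was lost without S3 (adjusted p = 0.066) or S4 (0.079). In bulk cultures, fewer cells of a type and less RNA per cell cannot be told apart.

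Recovery cultures differed from 1-day cultures in 26.9% of the genes tested. Of the 13238 genes, 3566 were called, 1837 (13.9%) higher and 1729 (13.1%) lower at recovery, and the 4 recovery libraries lay wholly above or below the 4 from 1 day for 2280 genes (17.2%). Most called changes were modest: their median was 0.51 on the log2 scale among genes called higher and -0.56 among genes called lower, and 211 rose and 332 fell by at least 1. Air also changed over the same interval, with 3663 genes called (27.7%), 1899 (14.3%) higher and 1764 (13.3%) lower. Of the genes called higher in smoke, 841 were also called higher in air, which is 45.8% of the smoke list and 44.3% of the air list. For genes called lower the shared number was 875, which is 50.6% and 49.6% of the 2 lists, and 17 and 40 genes were called in opposite directions. The smoke change itself differed from the air change for 1229 genes (9.28%), lying above it for 509 (3.84%) and below it for 720 (5.44%).

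The number of calls varied with which animal was left out and with the animal block. Without S3 or S4 the calls in smoke fell to 1136 and 1145, against 3795 without S1 and 3053 without S2. Calls for the difference numbered 1369, 573, 203 and 259 without S1, S2, S3 and S4. In the counts for gene lists below, the words "by omission" introduce the number called without S1, S2, S3 and S4, in that order. Each list count in smoke stands against 13.9% called higher and 13.1% called lower over all genes. For the difference these shares were 3.84% above and 5.44% below. With no block for the animal, 839 genes were called in smoke and 69 for the difference. When the libraries were scaled by their totals alone, the split of the difference turned to 1064 above and 411 below, and that in air to 1241 higher and 2376 lower. The median difference over all genes moved from 0.0092 to 0.11 on the log2 scale under that scaling. In the plot of the smoke change against the air change, most points lie along the line of equal change, and the genes called for the difference lie on either side of it.

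**Figure D1:**
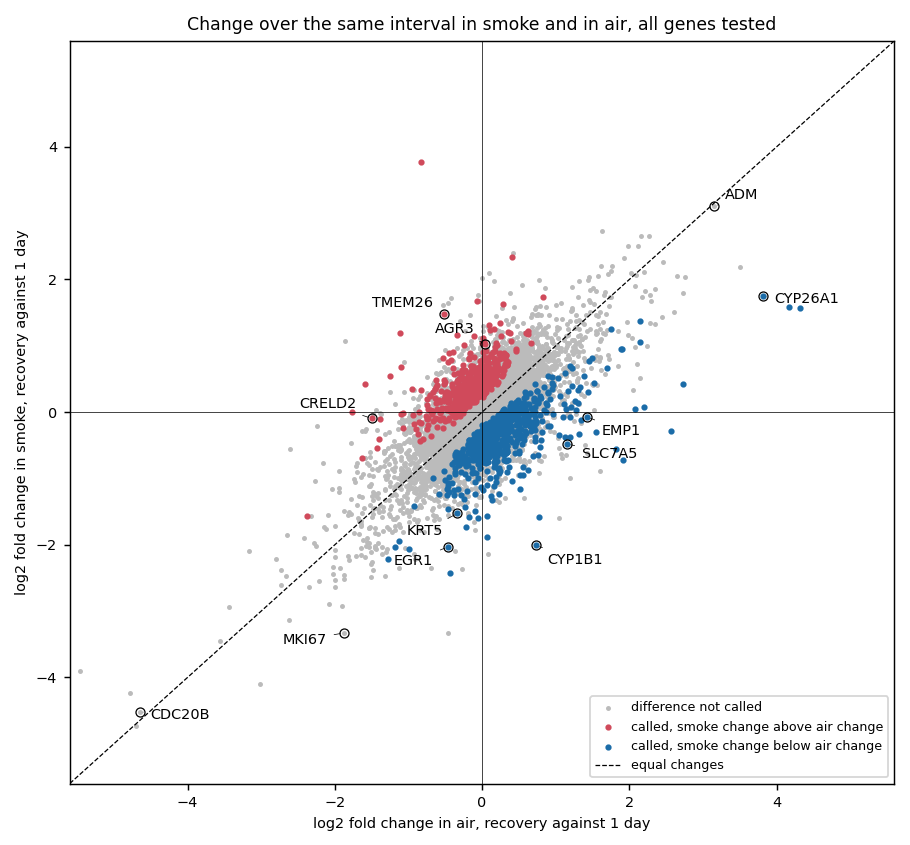
Log2 fold change of recovery against 1 day in smoke (vertical axis) against that in air (horizontal axis) for the 13238 genes tested, 1 point per gene, red where the smoke change was called above the air change (509 genes), blue where called below it (720) and grey otherwise. ADM, MKI67 and CDC20B moved the same way in both, while CYP1B1 (-2.01 in smoke, 0.74 in air) and CYP26A1 (1.75 and 3.82) lie far below the dashed line.

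Among the 12 largest rises were the secreted factors ADM, PGF and PTHLH, the oxygen-sensing gene EGLN3 and the oxidase DUOX2. ADM, the vasoactive peptide adrenomedullin, had normalized counts of 48.3, 223, 57.6 and 60.5 after 1 day and 797, 702, 659.8 and 583 at recovery in S1 to S4. The groups did not overlap, and ADM rose 8.59-fold, a log2 change of 3.10 ± 0.33 (SE, adjusted p = 0.0019). PGF, a growth factor of the VEGF family, had 15.1, 375, 68.3 and 81.9 after 1 day and 435, 562, 527 and 521 at recovery. S2 already stood near its recovery level after 1 day, while S1 started at 15.1. The log2 change of 2.73 ± 0.54 (SE, adjusted p = 0.011) was lost without S3 (adjusted p = 0.059) or S4 (0.060), and it was 2.06 without S1 and 3.45 without S2. PTHLH, which encodes parathyroid hormone-related protein, had 236, 801, 367 and 324 after 1 day and 2119, 3765, 1738 and 1704 at recovery, a rise of 2.51 ± 0.15 (SE, adjusted p = 0.00052) with no overlap. PLAT, tissue plasminogen activator, had 142, 363, 65.1 and 29.0 after 1 day and 551, 1635, 416 and 81.5 at recovery. The groups overlapped, with S4 lowest at both times, and within animals PLAT rose by 2.06 ± 0.18 (SE, adjusted p = 0.0013).

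DUOX2, the dual oxidase that releases hydrogen peroxide at the apical membrane, had 302, 201, 49.1 and 141 after 1 day and 2293, 568, 373 and 477 at recovery. It rose 4.81-fold (2.27, adjusted p = 0.0019), and S1 stood far above the other animals at recovery. CFP, the complement regulator properdin, had 4.95, 19.3, 37.2 and 24.6 after 1 day and 67.7, 58.0, 155 and 63.2 at recovery, a rise of 2.11 ± 0.37 (SE, adjusted p = 0.0070). DPEP2, a dipeptidase of leukotriene metabolism, had 44.5, 202, 295 and 261 after 1 day and 398, 672, 1084 and 776 at recovery, a rise of 2.08 ± 0.24 (SE, adjusted p = 0.0021). Neither gene overlapped between the groups. SPIB, an ETS family transcription factor, had 9.89, 33.2, 58.4 and 29.0 after 1 day and 109.9, 65.8, 169 and 103 at recovery, and its rise of 1.91 ± 0.36 (SE, adjusted p = 0.0090) was not called without S4 (adjusted p = 0.053). GNG2, a G protein gamma subunit, had 36.8, 15.9, 23.5 and 34.4 after 1 day and 202, 96.5, 88.5 and 93.5 at recovery and rose by 2.06 ± 0.23 (SE, adjusted p = 0.0021), again with S1 highest at recovery.

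EGLN3, ANKRD37 and SPAG4 complete the 12. EGLN3, an oxygen-dependent prolyl hydroxylase that marks HIF for degradation and is itself a HIF target, had 1489, 11226, 3677 and 3611 after 1 day and 14775, 16167, 14851 and 15209 at recovery. The recovery libraries lay close together while those from 1 day spread widely, and the rise of 1.98 ± 0.36 (SE, adjusted p = 0.0078) was not called without S4 (adjusted p = 0.053). ANKRD37, a small ankyrin-repeat protein induced by hypoxia, had 16.1, 155, 130.2 and 73.1 after 1 day and 163, 459.9, 375 and 252 at recovery (2.03, adjusted p = 0.0035), without overlap. SPAG4, a nuclear envelope protein, had 7.42, 89.7, 9.31 and 10.1 after 1 day and 33.2, 232, 58.4 and 51.7 at recovery, with S2 highest at both times and a rise of 2.04 ± 0.26 (SE, adjusted p = 0.0027). All 12 genes were also called higher in air, by 1.32 to 3.15. None was called for the difference between smoke and air, where the smallest adjusted p of the 12 was 0.20.

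**Figure D2:**
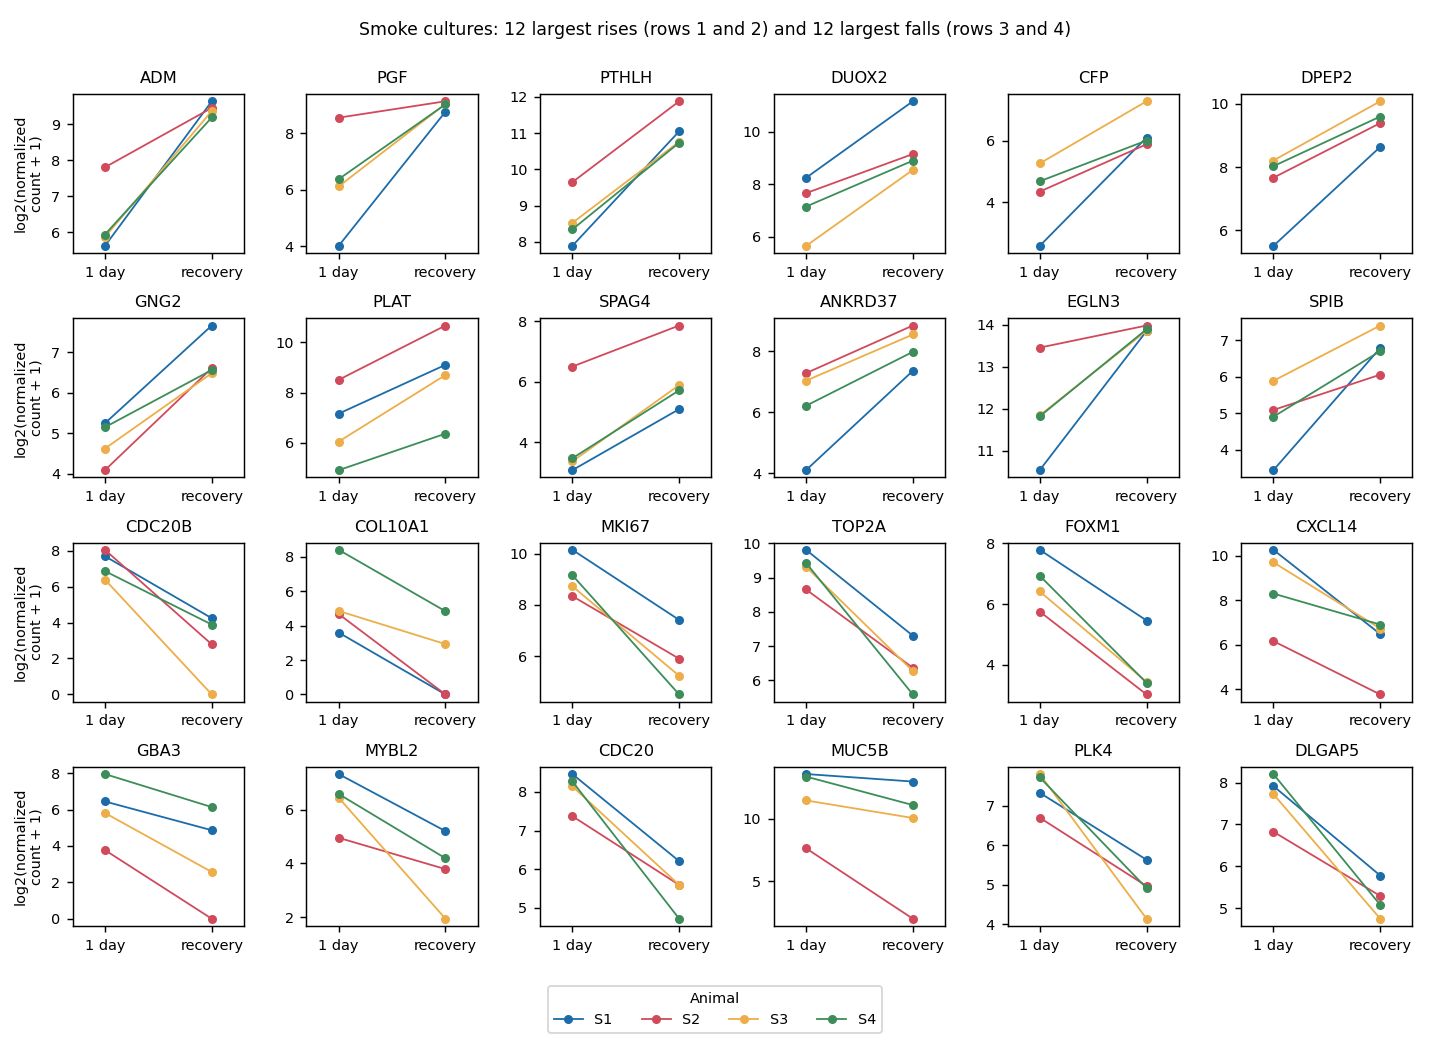
Log2(normalized count + 1) of the 12 genes with the largest rises (upper 2 rows) and the 12 with the largest falls (lower 2 rows) in each of the 8 smoke libraries, with 1 line per animal from 1 day to recovery and a separate vertical scale for each gene. The rule for these genes asked for the same direction in all 4 animals, so every line in a panel slopes one way, and for PGF the lines start far apart (S1 at 15.1 and S2 at 375 normalized counts) and end together.

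Genes of dividing cells had the lowest median of the lists plotted here. Of the 24 mitosis genes tested, 22 fell and none rose, with a median log2 change of -1.94 against 0.015 over all genes. MKI67, the proliferation marker Ki-67, had 1135, 324, 424 and 573 after 1 day and 169.9, 58.9, 36.8 and 21.8 at recovery. The groups were far apart, and MKI67 fell 10.1-fold, a log2 change of -3.33 ± 0.32 (SE, adjusted p = 0.0016). TOP2A, the topoisomerase that untangles replicated chromosomes, had 900.4, 402, 639 and 690.3 after 1 day and 157, 81.5, 76.4 and 47.1 at recovery (-2.92, adjusted p = 0.0010). FOXM1, a transcription factor of the G2 and M phases, had 220.1, 53.1, 84.6 and 122 after 1 day and 43.1, 7.16, 9.89 and 9.64 at recovery and fell by 2.89 ± 0.25 (SE, adjusted p = 0.0013). Neither overlapped between the groups, and S1 kept the most of both at recovery. CDC20, an activator of the anaphase-promoting complex, had 352, 165, 282 and 308 after 1 day and 72.9, 47.2, 47.2 and 25.3 at recovery (-2.54, adjusted p = 0.0018). DLGAP5, a spindle protein, had 241, 112, 210.4 and 294 after 1 day and 54.0, 38.3, 25.9 and 32.8 at recovery (-2.44, adjusted p = 0.0020). MYBL2, a transcription factor of the cell cycle, had 159.6, 30.0, 86.4 and 95.0 after 1 day and 35.8, 12.8, 2.83 and 17.2 at recovery. CDC20 and DLGAP5 did not overlap between the groups, while MYBL2 did, with S2 low after 1 day. MYBL2 fell by 2.55 ± 0.48 (SE, adjusted p = 0.0092), a call lost without S4 (adjusted p = 0.054), and its change was -1.90 without S3. PLK1 (-1.81) and CENPF (-2.14), a mitotic kinase and a kinetochore protein, fell as well. The 2 members that were not called, named after their values were seen, were PRC1 (-0.42, adjusted p = 0.066) and HMMR (-0.47, adjusted p = 0.16).

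Mitosis genes fell in air too, where all 24 were called lower with a median of -1.44. The smoke fall was called deeper for 2 members (by omission 4, 1, 0 and 0), TPX2 (-0.81, lost without S3 or S4 at adjusted p = 0.28 and 0.25), a spindle assembly factor named after its values were seen, and KIF20A (-0.94, lost without S2, S3 or S4 at adjusted p = 0.065, 0.22 and 0.18), a kinesin of cytokinesis. Neither was called when libraries were scaled by their totals. Over all genes, 5.44% had a smoke change called below the air change. MKI67 (-1.45, adjusted p = 0.058) and TOP2A (-1.02, adjusted p = 0.069) were not called for the difference. The summed normalized counts of the list were 2926 to 6995 after 1 day and 1063 to 1700.4 at recovery in smoke, and 3792 to 7599 and 1916 to 1984 in air. At recovery every smoke culture lay below every air culture, while the 1-day ranges overlapped. DNA replication genes moved the same way: 13 of 23 fell (by omission 12, 14, 6 and 6) and none rose, with a median of -0.58 in smoke and -0.52 in air. They included RRM2, the ribonucleotide reductase subunit (-1.43, adjusted p = 0.0054), CHAF1A, a histone chaperone subunit (-1.30, adjusted p = 0.0027), MCM3, a subunit of the replicative helicase (-1.04, adjusted p = 0.0051), and CDT1, a licensing factor (-0.78, adjusted p = 0.0056). No replication gene was called for the difference.

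Genes of centriole amplification fell. CDC20B, a gene of cells that are becoming multiciliated, had 205, 263, 82.9 and 115 after 1 day and 17.9, 5.90, 0 and 13.8 at recovery. The groups did not overlap, and CDC20B fell by 4.52 ± 0.54 (SE, adjusted p = 0.0023), the largest fall that the rule for named genes took, with -3.89 without S3. PLK4, the kinase that starts centriole duplication, had 159.8, 103, 222 and 209.8 after 1 day and 48.7, 30.3, 16.7 and 29.2 at recovery and fell by 2.47 ± 0.33 (SE, adjusted p = 0.0032), also with no overlap. Of 14 regulators of multiciliogenesis, 6 fell (by omission 7, 6, 4 and 5). The 1 that rose was MYB, a transcription factor of early multiciliogenesis (0.36, lost without S1, S3 or S4 at adjusted p = 0.061, 0.14 and 0.12), named after its values were seen, and it was not called under upper quartile scaling. CCNO, a cyclin needed for centriole amplification, had 89.1, 102, 199 and 175 after 1 day and 12.8, 25.5, 32.0 and 56.3 at recovery (-2.22, adjusted p = 0.0018). FOXN4, a transcription factor of the same step, had 33.4, 18.2, 59.2 and 59.3 after 1 day and 3.83, 0, 0 and 0 at recovery (-4.73, adjusted p = 0.0027), and its change was -5.36 without S1. FOXN4, counted among the 6, passed the filter only through the 1-day libraries, where it was high. Its fall therefore adds no separate support, and with recovery counts at 0 the size depends on the added 1. FOXJ1, the factor that switches on cilium genes, did not pass the test (0.57, adjusted p = 0.074, higher in 3 of 4 animals). In air 7 regulators were called lower, with a median of -0.56 against -0.18 in smoke, and none was called for the difference.

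Genes of the finished cilium rose in part. Of 26 motile cilium genes tested, 7 rose (by omission 7, 13, 2 and 1) and none fell (by omission 2, 0, 0 and 0), and the median log2 change was 0.59. The animals differed: the median over the list was 1.58, -0.24, 0.47 and 0.30 in S1 to S4. The summed level went from 8107 to 24521 in S1, which had the fewest cilium transcripts of the 4 animals after 1 day, and from 23119 to 17831 in S2. CCDC39, which sets the repeat of the ciliary axoneme, had 114, 185, 529 and 325 after 1 day and 339.8, 279, 937 and 645 at recovery and rose by 0.99 ± 0.15 (SE, adjusted p = 0.0051) in all 4 animals. TPPP3, a tubulin-binding protein, had 515, 2022, 2932 and 1997 after 1 day and 2370.1, 2679.8, 6141 and 4761 at recovery (1.23, adjusted p = 0.0097), not called without S4 (adjusted p = 0.059). In air the median was 0.34 with 3 called higher, and no cilium gene was called for the difference.

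**Figure D3:**
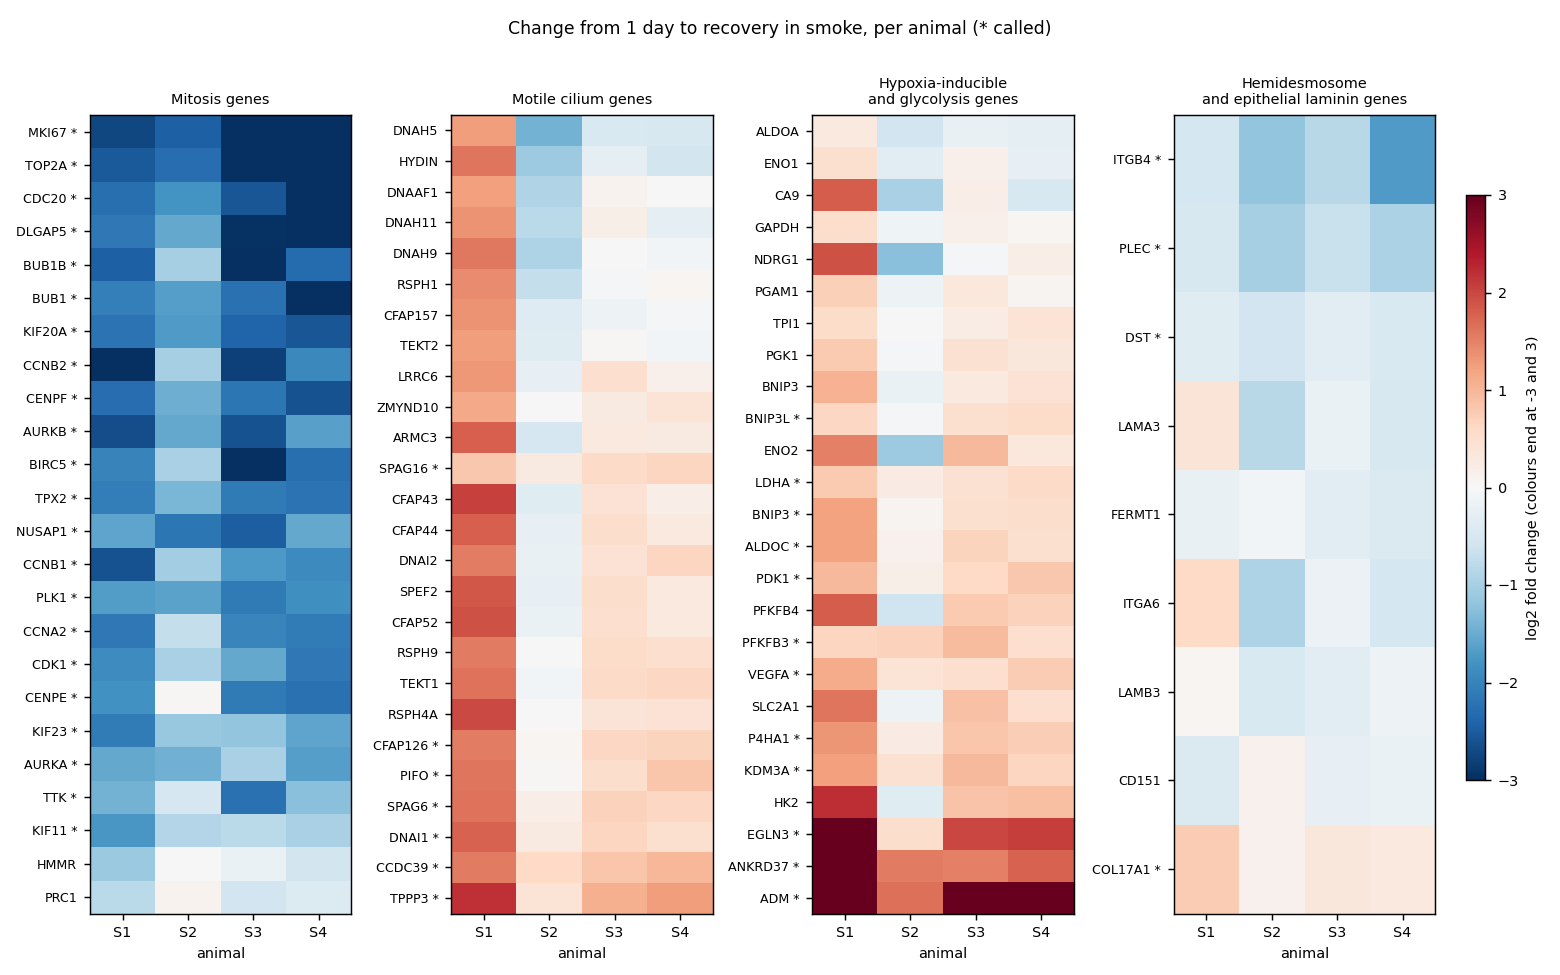
Log2 fold change from 1 day to recovery in smoke for tested members of 4 gene lists (rows) in each animal (columns), from blue (lower at recovery) to red (higher), with colours ending at -3 and 3 and a star on called genes. Mitosis genes are blue nearly throughout, cilium genes are red in S1 (list median 1.58) and pale or blue in S2 (-0.24), and ITGB4 and PLEC are blue in every animal.

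Basal cell genes fell. KRT5, the keratin that marks basal cells, had 53429, 46922, 50068 and 41833 after 1 day and 27859.5, 12912, 17412 and 12227 at recovery. The groups did not overlap, and KRT5 fell 2.88-fold, a log2 change of -1.52 ± 0.15 (SE, adjusted p = 0.0016). In air KRT5 had 57575, 47729, 51219.7 and 40569 after 1 day and 44317, 33427, 36078 and 42334 at recovery, a change of -0.33 (adjusted p = 0.074), and the difference between the 2 changes was -1.19 ± 0.20 (SE, adjusted p = 0.0034). Of 13 basal genes tested, 8 fell (by omission 9, 8, 6 and 6) and none rose, with a median of -0.49 in smoke and -0.10 in air, where 4 rose and 3 fell. The smoke change lay below the air change for 5 of them (by omission 6, 4, 3 and 4), KRT5 and, of the genes shared with the junction lists, DSG3 and ITGB4, together with S100A2 (-0.49), a calcium-binding protein of basal cells, and NGFR (-1.09), a neurotrophin receptor, both named after their values were seen. S100A2 lost that call without S1 (adjusted p = 0.080), S3 (0.12) or S4 (0.13), and NGFR kept it in every omission of an animal. TP63, the basal cell transcription factor p63, had 783, 486, 573 and 591 after 1 day and 477, 458, 463 and 344 at recovery and fell by 0.47 ± 0.13 (SE, adjusted p = 0.030). That call was lost without S1 (adjusted p = 0.059), S3 (0.083) or S4 (0.14), and TP63 was not called for the difference (-0.14, adjusted p = 0.56). KRT14, KRT15 and KRT17 were not analysed here.

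Desmosome genes fell in smoke. Of 10, 6 fell and 1 rose in smoke, 1 fell and 3 rose in air, and 7 had a smoke change called below the air change (by omission 6, 6, 4 and 4). The rise was DSG2 (0.44, adjusted p = 0.0062), a desmosomal cadherin of simple epithelium named after its values were seen. PKP1, a desmosomal plaque protein, had 1524, 1459.9, 1264 and 1177 after 1 day and 959, 569, 606 and 439.9 at recovery (-1.13, adjusted p = 0.0020), while air changed by -0.02 and the difference was -1.11 ± 0.15 (SE, adjusted p = 0.00085). DSG3, a desmosomal cadherin of basal cells, fell in smoke (-0.82, adjusted p = 0.0046) and rose in air (0.55, adjusted p = 0.0086), a difference of -1.37 ± 0.18 (SE, adjusted p = 0.00064). PKP1 and DSG3 kept that call whichever animal was left out. JUP, plakoglobin, and DSC3, another desmosomal cadherin, fell by 0.60 and 0.90 in smoke. Their calls for the difference were lost without S3 (adjusted p = 0.093) or S4 (0.058) for JUP and without S3 (adjusted p = 0.080) or S4 (0.081) for DSC3.

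Among 10 hemidesmosome and epithelial laminin genes, PLEC, DST and ITGB4 fell (by omission 6, 4, 3 and 3) and COL17A1 rose. PLEC, plectin, had 8005, 8660.1, 7375 and 7847 after 1 day and 5725, 4371, 4613 and 4087 at recovery (-0.77, adjusted p = 0.0026) against a change of 0.05 in air. The groups did not overlap, and the difference of -0.83 ± 0.13 (SE, adjusted p = 0.0018) was called whichever animal was left out. ITGB4, the integrin beta 4 chain that binds laminin, had 6294, 8078, 6682 and 7241 after 1 day and 4380.4, 3551, 3733 and 2235 at recovery and fell by 1.06 ± 0.17 (SE, adjusted p = 0.0053). Its difference from air (-0.96, adjusted p = 0.0079) was not called without S2 (adjusted p = 0.063) or S3 (0.064). DST, a linker of hemidesmosomes to keratin, fell in smoke (-0.43) and in air (-0.26), with no call for the difference (-0.17, adjusted p = 0.18). COL17A1, a transmembrane collagen of hemidesmosomes, rose by 0.38 (adjusted p = 0.032) in smoke and 1.33 (adjusted p = 0.00020) in air. The rise in smoke was not called without S3 (adjusted p = 0.12) or S4 (0.099), while the difference of -0.95 (adjusted p = 0.00066) was called in every omission of an animal. LAMA3 (-0.28, adjusted p = 0.25) and LAMB3 (-0.22, adjusted p = 0.11), chains of epithelial laminin, taken up after their values were seen, did not pass in smoke, and in air they changed by 0.67 and 0.25. Over the list 7 genes had a smoke change called below the air change (by omission 8, 4, 2 and 4), with medians of -0.27 in smoke and 0.30 in air.

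Matrix and mesenchymal genes fell more often than they rose in smoke, 8 (by omission 12, 4, 3 and 2) against 2 of 24, with a median of -0.31 in smoke and 0.29 in air. COL4A2, a basement membrane collagen, had 320.3, 198, 94.8 and 452 after 1 day and 211, 50.1, 41.5 and 94.2 at recovery (-1.50, adjusted p = 0.0071). COL12A1, a fibril-associated collagen, had 194, 317, 179 and 273 after 1 day and 122, 146, 116 and 89.4 at recovery (-0.999, adjusted p = 0.0076). Every animal was lower at recovery for both, and the groups overlapped for COL4A2 only. The 2 that rose were LOX, the collagen-crosslinking lysyl oxidase (0.82, adjusted p = 0.0022), and MMP13, a collagenase (0.81, adjusted p = 0.0071), both also higher in air (0.51 and 1.38). The smoke change was called below the air change for 7 genes (by omission 11, 2, 1 and 3), COL4A2 (-1.40, lost without S2, S3 or S4 at adjusted p = 0.058, 0.10 and 0.092) and COL12A1 (-1.11, lost without S3 or S4 at adjusted p = 0.10 and 0.070) among them. COL10A1, type X collagen, was among the 12 largest falls with 11.1, 24.6, 27.9 and 339 after 1 day and 0, 0, 6.60 and 27.6 at recovery (-3.44, adjusted p = 0.0032), S4 being highest at both times. Squamous and cornified envelope genes had a median of 0.08 in smoke and 0.74 in air, where 4 of 11 rose, against 1 in smoke.

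**Figure D4:**
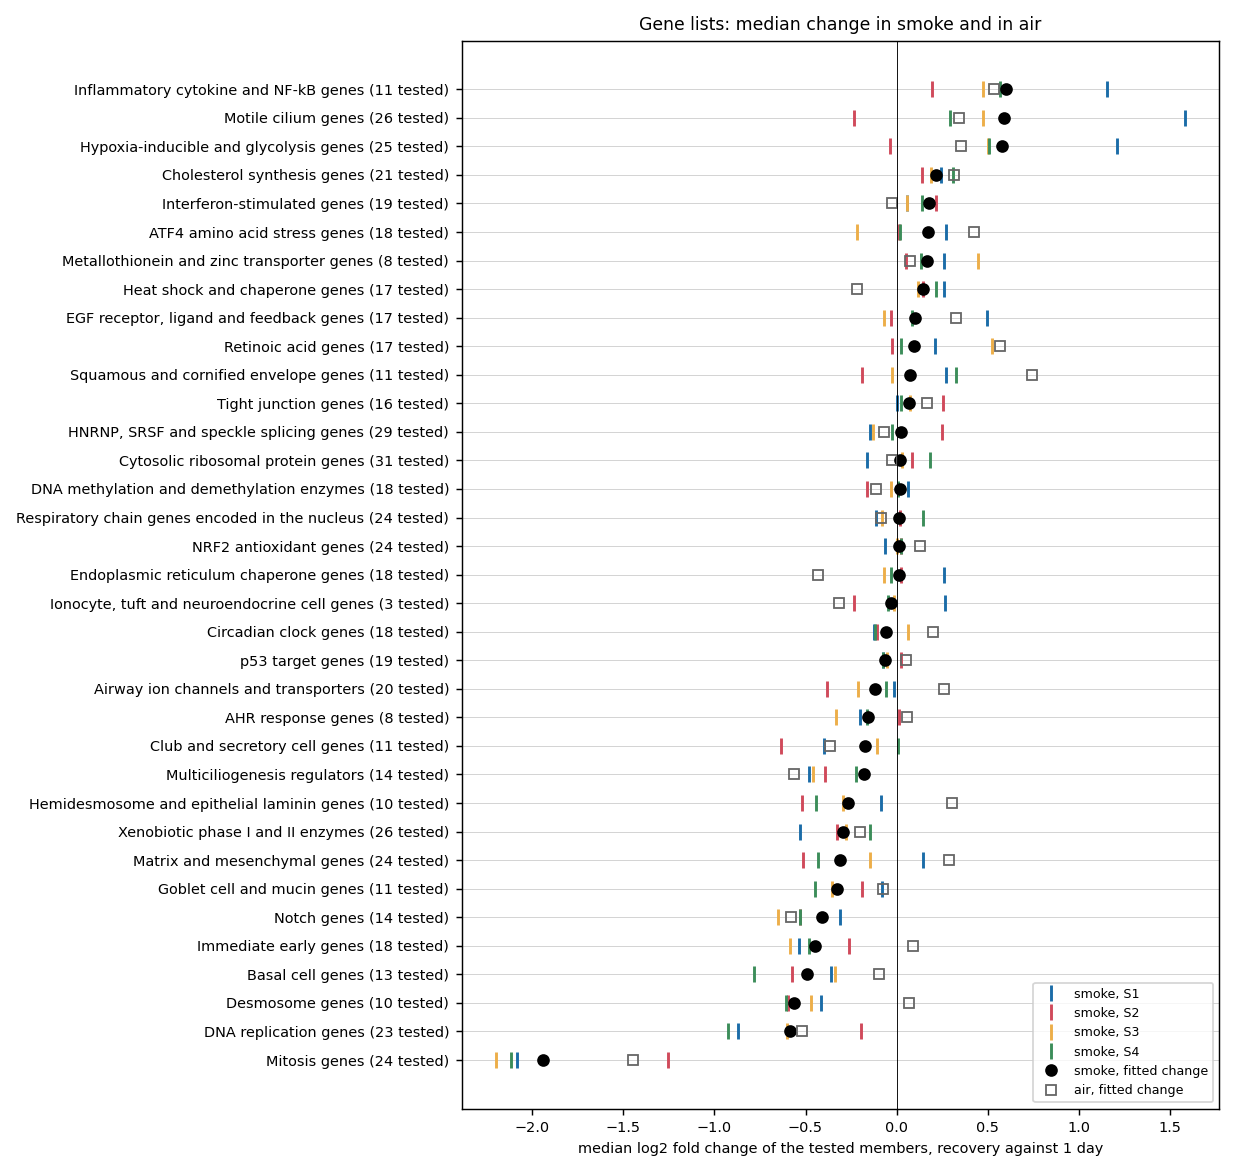
Median log2 fold change of the tested members of 35 gene lists, recovery against 1 day, with black circles for the fitted change in smoke, open squares for air and coloured ticks for the median within each animal in smoke. Mitosis genes lie lowest in both (-1.94 in smoke, -1.44 in air), and the desmosome (-0.56 and 0.07) and immediate early (-0.45 and 0.09) circles lie below their air squares.

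Secretory genes moved in both directions. MUC5B, a gel-forming mucin, had 12361, 198, 2849 and 10729 after 1 day and 8129.9, 2.95, 1069 and 2199 at recovery. S2 had the least at both times and was nearly without MUC5B at recovery, and the groups overlapped. The log2 change of -2.49 ± 0.69 (SE, adjusted p = 0.033) was not called without S3 (adjusted p = 0.077) or S4 (0.12), and it was -3.12 without S1 and -1.43 without S2. AGR2, a disulfide isomerase needed for mucin assembly, had 11543, 11905, 10759 and 16256 after 1 day and 18034, 18232, 14862 and 29985 at recovery and rose by 0.65 ± 0.09 (SE, adjusted p = 0.0032). Its excess over air (0.41, adjusted p = 0.044) was lost without S2 (adjusted p = 0.16), S3 (0.098) or S4 (0.21). Of 11 goblet and mucin genes, 3 rose (by omission 2, 2, 2 and 1) and 5 fell (by omission 5, 5, 1 and 0). Club and secretory genes showed 4 falls (by omission 3, 2, 2 and 2) and no rise among 11. PIGR, the receptor that carries IgA into the lumen, fell in smoke (-0.62, adjusted p = 0.0028) and in air (-0.89). SCGB1A1, the club cell secretoglobin, was low throughout, with 35.6, 6.27, 27.1 and 14.7 after 1 day and 12.7, 5.89, 47.8 and 14.8 at recovery, and did not pass (-0.17, adjusted p = 0.77). CXCL14, an epithelial chemokine, had 1226, 70.4, 829.7 and 313 after 1 day and 87.8, 12.5, 105 and 118 at recovery and fell by 2.64 ± 0.33 (SE, adjusted p = 0.0027), with -2.35 in air. GBA3, a cytosolic beta-glucosidase, had 86.2, 12.7, 55.2 and 247 after 1 day and 28.1, 0, 4.93 and 69.3 at recovery and fell by 2.60 ± 0.41 (SE, adjusted p = 0.0051), with -2.74 in air. For both the ranges overlapped, levels differed between animals, and all 4 animals were lower at recovery. MUC5AC was not analysed here.

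CYP1B1, the AHR-induced cytochrome P450 that oxidizes aromatic hydrocarbons, fell in smoke and rose in air. In smoke it had 1649, 2335, 1643 and 1081 after 1 day and 464, 627, 305 and 291 at recovery, with no overlap, and it fell 4.03-fold, a log2 change of -2.01 ± 0.11 (SE, adjusted p = 0.00033). In air it had 173, 206, 244 and 308 after 1 day and 322, 465, 367 and 381 at recovery, a rise of 0.74 (adjusted p = 0.0074). After 1 day every smoke culture stood above every air culture, and at recovery the smoke and air ranges overlapped. The changes differed by -2.75 ± 0.32 (SE, adjusted p = 0.00024), a call kept whichever animal was left out. CYP1A1, the classical AHR target, did not reach the filter and had 60.6, 3.21, 11.8 and 2.23 after 1 day of smoke and 6.39, 0, 0.943 and 0 at recovery. Of 8 AHR genes tested, CYP1B1, ALDH3A1 and ARNT fell and AHRR rose. ALDH3A1, an aldehyde dehydrogenase abundant in airway cells, fell in smoke (-1.03) and in air (-1.10), with a difference of 0.07 (adjusted p = 0.88). AHRR, the AHR repressor, rose by 0.27 ± 0.07 (SE, adjusted p = 0.029), a call lost without S2 (adjusted p = 0.084), S3 (0.13) or S4 (0.077), and ARNT, the receptor's partner, fell by 0.32 ± 0.08 (SE, adjusted p = 0.028), a call lost without S1 (adjusted p = 0.051), S3 (0.14) or S4 (0.054). CYP1B1 was the 1 AHR gene called for the difference, and 2 others were called above the air change when libraries were scaled by totals. AHRR was not called under upper quartile scaling.

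NRF2 antioxidant genes moved both ways, 6 higher (by omission 7, 4, 2 and 3) and 7 lower (by omission 6, 6, 3 and 3) of 24. TXN, thioredoxin, had 952, 1030.1, 1061 and 911 after 1 day and 1389, 1988, 1768 and 1769 at recovery and rose (0.80, adjusted p = 0.0019). GCLM, a subunit of the enzyme that starts glutathione synthesis, rose as well (0.46, adjusted p = 0.0063), and both rose in air (0.58 and 0.46). ABCC1, an exporter of glutathione conjugates, fell (-0.996, adjusted p = 0.0046), with -0.54 in air. HMOX1, heme oxygenase 1, had 52.0, 229.8, 143 and 73.8 after 1 day and 83.0, 117, 65.9 and 58.6 at recovery and did not pass (-0.43, adjusted p = 0.29). SRXN1, sulfiredoxin, picked after its values were seen, fell in smoke (-0.28, adjusted p = 0.037, lost without S2, S3 or S4 at adjusted p = 0.097, 0.12 and 0.099) and rose in air (0.47, adjusted p = 0.0013). The fall was not called under scaling by totals (adjusted p = 0.051). The difference of -0.75 (adjusted p = 0.00045) was kept in every omission of an animal. For 5 NRF2 genes the smoke change was called below the air change (by omission 5, 4, 1 and 2) and for none above it. Of 26 xenobiotic enzymes, 9 fell and 2 rose (by omission 4, 2, 0 and 0). The smoke change was called below the air change for 3 of the 26 and above it for none, with a median difference of 0.09. The flavin monooxygenase FMO2 (-0.87, adjusted p = 0.0046) and the epoxide hydrolase EPHX1 (-0.55, adjusted p = 0.0061) fell, and in air they changed by -1.10 and -0.79.

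Chaperone genes of the endoplasmic reticulum fell in air, while none was called lower in smoke. In air 14 of 18 fell and 1 rose (median -0.43), whereas in smoke 4 rose (by omission 4, 3, 3 and 1) and none fell (by omission 1, 0, 0 and 0). The smoke median was 0.01 and turned to -0.04 under upper quartile scaling. For 12 of them the smoke change was called above the air change (by omission 13, 9, 8 and 5, and 16 under scaling by totals), and for none below. HSPA5, the chaperone BiP, had 15503, 12869.9, 12608 and 15302 after 1 day and 20120.2, 20859, 14428 and 19422 at recovery in smoke. Air cultures had 18501, 17010.2, 13813 and 17844 after 1 day and 13909.9, 9668, 10147 and 10561 at recovery. It rose by 0.40 in smoke and fell by 0.61 in air, a difference of 1.01 ± 0.12 (SE, adjusted p = 0.00039). After 1 day HSPA5 was lower in smoke than in air within every animal, and at recovery every smoke culture stood above every air culture. The summed list was likewise lower in smoke within every animal after 1 day (74031 to 84726, against 82548 to 100211 in air) and higher at recovery (69394 to 88586, against 54370 to 71861). MANF, a secreted stress factor of the endoplasmic reticulum, had 610.0, 580.2, 582 and 588 after 1 day and 871, 859, 623 and 857 at recovery in smoke (0.43, adjusted p = 0.017) and changed by -0.52 (adjusted p = 0.0016) in air, a difference of 0.95 ± 0.11 (SE, adjusted p = 0.00024). The rises in smoke were lost without S2 (adjusted p = 0.051), S3 (0.058) or S4 (0.078) for HSPA5 and without S4 (adjusted p = 0.090) for MANF, while both differences were kept in every omission of an animal. The co-chaperones of BiP DNAJB9 (0.64, adjusted p = 0.0043) and DNAJB11 (0.42, adjusted p = 0.011, lost without S4 at adjusted p = 0.067) rose in smoke. DNAJB9 was not called for the difference (0.54, adjusted p = 0.054), and DNAJB11 was (0.60, adjusted p = 0.0039), though not without S4 (adjusted p = 0.060). CRELD2 and PDIA4, a secreted stress protein and a disulfide isomerase chosen after their values were seen, changed by -0.09 and -0.03 in smoke, neither called, and -1.50 and -1.10 in air, both called, with differences of 1.41 and 1.06.

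Among 17 heat shock and cytosolic chaperone genes, 8 rose (by omission 7, 6, 3 and 2) and 3 fell in smoke, against 1 and 7 in air. The smoke change was called above the air change for 10 (by omission 11, 7, 6 and 6) and below it for 2. HSPH1, an HSP110 chaperone, had 1330.1, 1499, 2381 and 2353 after 1 day and 2046, 2783, 3815 and 3719 at recovery (0.71, adjusted p = 0.0016), with -0.02 in air and a difference of 0.73 ± 0.10 (SE, adjusted p = 0.00085). CHORDC1, an HSP90 partner, rose by 0.82 ± 0.10 (SE, adjusted p = 0.0026), and its difference (0.58, adjusted p = 0.043) was lost without S2 (adjusted p = 0.10), S3 (0.19) or S4 (0.21). HSPB1, the small heat shock protein HSP27, fell in smoke (-0.59, adjusted p = 0.0022) and in air (-0.82). The 2 genes below the air change were BAG3 and DNAJB1. BAG3, a co-chaperone of HSP70, changed by -0.62 in smoke and 0.14 in air with a difference of -0.75 (adjusted p = 0.00010). DNAJB1, an HSP40 named after its values were seen, changed by -0.21 and 0.50 with a difference of -0.70 (adjusted p = 8.6e-05).

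Sterol genes rose in part in both exposures. Of 21 cholesterol synthesis genes, 8 rose in smoke (by omission 7, 9, 3 and 4) and 13 in air, and 1 fell in smoke (by omission 1, 0, 0 and 0). SC5D, a sterol desaturase, had 491, 1608, 986 and 904 after 1 day and 999, 2679.7, 2029.6 and 2303 at recovery and rose by 1.04 ± 0.10 (SE, adjusted p = 0.0015). SC5D rose more than in air (0.37, adjusted p = 0.044), a call lost without S1 (adjusted p = 0.083), S3 (0.24) or S4 (0.17). MSMO1, a sterol oxidase (0.76, adjusted p = 0.0030), rose without a called difference from air. Among the 21 sterol genes the smoke change was called above the air change for 2 and below it for 4, with a median difference of -0.13. The shares over all genes were 3.84% above and 5.44% below. Of 18 genes of the ATF4 amino acid response, 4 rose (by omission 4, 4, 1 and 1) and 2 fell (by omission 2, 2, 0 and 2). Over all genes 13.9% were called higher and 13.1% lower. In air 8 of the ATF4 genes rose and none fell, with a median of 0.42 against 0.17 in smoke. PSAT1, an enzyme of serine synthesis, rose (0.70, adjusted p = 0.0061), with no call for the difference from air (-0.60, adjusted p = 0.077). SLC7A5, the large neutral amino acid transporter, fell in smoke (-0.48, adjusted p = 0.0069, lost without S3 at adjusted p = 0.051) and rose in air (1.16, adjusted p = 0.00063). The SLC7A5 difference of -1.64 ± 0.17 (SE, adjusted p = 0.00011) was kept in every omission of an animal.

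Hypoxia-inducible and glycolysis genes rose in part. Of 25 tested, 12 were called higher (by omission 11, 19, 6 and 5) and none lower (by omission 1, 0, 0 and 0), with a median of 0.58 in smoke and 0.35 in air, where 12 rose and 1 fell. The list holds ADM, EGLN3 and ANKRD37 from the largest rises. PFKFB3, which makes the activator of phosphofructokinase, had 657, 711, 405 and 630.0 after 1 day and 1028, 1157, 779 and 892 at recovery (0.70, adjusted p = 0.0027). KDM3A, a histone demethylase induced by hypoxia, had 536, 895, 756 and 688 after 1 day and 1254, 1237, 1489 and 1079.6 at recovery (0.83, adjusted p = 0.0045). The animals differed, with list medians of 1.21, -0.04, 0.50 and 0.51 in S1 to S4. S2 stood highest on this list after 1 day, with a summed level of 211254 against 73459.5 in S1, and at recovery the summed levels ranged from 134735 to 183010.0. PFKFB4, of the same enzyme family as PFKFB3, and P4HA1, a collagen prolyl hydroxylase, both named after their values were seen, had a smoke change called above the air change. PFKFB4 did not pass in smoke (0.67, adjusted p = 0.15) and fell in air (-1.10, adjusted p = 0.034), a difference of 1.77 that was lost without S3 (adjusted p = 0.20) or S4 (0.13). P4HA1 rose in smoke and did not pass in air (0.07, adjusted p = 0.69), a difference of 0.72 that was lost without S3 (adjusted p = 0.19) or S4 (0.17). The rise of P4HA1 in smoke (0.79, adjusted p = 0.0092) was not called without S3 (adjusted p = 0.055) or S4 (0.054).

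Immediate early genes were split. Of 18 tested, 8 fell (by omission 8, 10, 5 and 5) and 3 rose (by omission 3, 3, 1 and 2) in smoke, and 10 had a smoke change called below the air change (by omission 7, 7, 6 and 6). Summed levels of the list after 1 day were 11742 to 16738 in smoke and 8511 to 11441 in air, so smoke already stood higher then. At recovery they were 7964 to 12770 in smoke and 9906 to 13751 in air, lower in smoke within every animal. EGR1, a zinc finger factor induced within minutes of growth factor signals, had 1563, 1367, 1495 and 1398 after 1 day and 660.4, 320.3, 379 and 199 at recovery and fell by 2.03 ± 0.21 (SE, adjusted p = 0.0018), against -0.46 in air, a difference of -1.57 (adjusted p = 0.0022). JUN, an AP-1 subunit, had 1772, 1883, 1187 and 1098 after 1 day and 802, 871, 470.3 and 403 at recovery (-1.26, adjusted p = 0.00062) and a difference of -1.37 (adjusted p = 0.0025). MYC, a growth regulator, had 468, 285, 223 and 175 after 1 day and 219, 126, 89.8 and 66.3 at recovery (-1.24, adjusted p = 0.0015) and a difference of -1.47 (adjusted p = 0.00014). The groups did not overlap for EGR1 and JUN and overlapped for MYC, and all 3 differences were kept whichever animal was left out. The rises, named after their values were seen, were FOS (1.10), the AP-1 partner of JUN, with 1.62 in air, and the AP-1 subunits JUNB (0.50, lost without S3 at adjusted p = 0.054) and FOSL2 (0.29, lost without S3 or S4 at adjusted p = 0.18 and 0.17). Of 17 EGF pathway genes, 5 rose (by omission 4, 4, 3 and 4) and 4 fell. The feedback inhibitors ERRFI1 (1.26, adjusted p = 0.00089) and DUSP4 (1.09, adjusted p = 0.0015) rose, and EGFR (-0.85, adjusted p = 0.0026) and LRIG1 (-0.53, adjusted p = 0.0067), a negative regulator of the receptor, fell, all in the direction they took in air. The rise of ERRFI1 was smaller than in air (-0.49, adjusted p = 0.028), a call lost without S2 (adjusted p = 0.13), S3 (0.13) or S4 (0.089) and under scaling by totals (adjusted p = 0.056).

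Inflammatory genes rose in part: of 11 tested, 5 were higher and none lower, with a median of 0.60 in smoke and 0.53 in air. TNFAIP3, the NF-kB inhibitor A20, had 241, 179.8, 126 and 123 after 1 day and 560.1, 339, 384 and 287 at recovery (1.24, adjusted p = 0.0018) and rose in air (1.02). CXCL8, the neutrophil chemoattractant interleukin 8, had 171, 7.39, 29.6 and 6.75 after 1 day and 486, 50.1, 80.7 and 16.0 at recovery, with S1 far above the others and a rise in all 4 animals (1.67, adjusted p = 0.0062). CXCL3, another neutrophil chemokine, had 140.1, 6.09, 46.1 and 17.1 after 1 day and 313, 48.4, 99.3 and 42.3 at recovery (1.57, adjusted p = 0.010). CXCL3 has close paralogs, so the reads counted to it are uncertain. Neither chemokine was called for the difference (0.20, adjusted p = 0.86 for CXCL8 and 1.30, adjusted p = 0.063 for CXCL3). PTGS2, the inducible cyclooxygenase, and CXCL6, a further chemokine, named after their values were seen, also rose: PTGS2 (0.60, lost without S3 or S4 at adjusted p = 0.096 and 0.12) and CXCL6 (1.09). Of 19 interferon-stimulated genes, 3 rose (by omission 3, 2, 2 and 0) and 2 fell (by omission 1, 2, 1 and 1). Both shares are near those over all genes. They included MX2, a dynamin-like antiviral GTPase (1.10, adjusted p = 0.0080, lost without S4 at adjusted p = 0.055), and OAS3, an oligoadenylate synthetase (-0.62, adjusted p = 0.0063). None was called for the difference.

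Retinoic acid genes held 2 of the largest gaps to air. CYP26A1, the hydroxylase that clears retinoic acid and is induced by it, had 617, 1306, 678 and 489.6 after 1 day and 2053, 4055, 2108 and 1971 at recovery in smoke. Its counts in air were 535, 1007, 597 and 350.1 after 1 day and 5890.1, 12072, 8064 and 7887 at recovery. It rose in both, by 1.75 ± 0.08 (SE, adjusted p = 0.00021) in smoke and by 3.82 (adjusted p = 6.1e-05) in air, and at recovery every air culture stood above every smoke culture. The difference was -2.07 ± 0.18 (SE, adjusted p = 3.8e-05). RARB, a retinoic acid receptor that is a target of its own pathway, chosen after its values were seen, did not pass in smoke (-0.12, adjusted p = 0.44) and rose in air (1.34, adjusted p = 0.00022), a difference of -1.46 (adjusted p = 0.00010). Of 17 retinoic acid genes, 6 rose (by omission 6, 6, 2 and 4) and 2 fell (by omission 3, 2, 1 and 1) in smoke, against 11 and 2 in air. The smoke change was called below the air change for 5 (by omission 6, 2, 3 and 2, and 3 under scaling by totals) and above it for none. These were CYP26A1 and RARB, which kept the call in each omission, and, named after their values were seen, a second hydroxylase and 2 receptors, CYP26B1 (-2.75, lost without S2, S3 or S4 at adjusted p = 0.086, 0.071 and 0.073), RARA (-0.62, lost without S2 or S4 at adjusted p = 0.17 and 0.18) and RARG (-0.35, lost without S2, S3 or S4 at adjusted p = 0.14, 0.24 and 0.16). Without S4 the CYP26B1 difference was -1.93, and RARA and RARG were not called under scaling by totals. DHRS9, a retinol dehydrogenase, rose by 1.01 in smoke and 1.01 in air, and RXRA, the partner receptor, changed by -0.66 and -0.46.

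Notch genes fell in part in both exposures. Of 14, 6 fell (by omission 6, 6, 2 and 3) and none rose in smoke, and 7 fell and 2 rose in air, with medians of -0.41 in smoke and -0.58 in air. NOTCH1, a receptor that steers basal cells toward a secretory fate, had 839.9, 547, 564 and 508 after 1 day and 373, 161, 178 and 149 at recovery (-1.59, adjusted p = 0.00089), with -1.50 in air. NOTCH3, a related receptor, had 903, 1508, 1207 and 1389 after 1 day and 685, 397, 483 and 420.3 at recovery (-1.34, adjusted p = 0.0060), with -0.60 in air. Neither overlapped between the groups, and neither was called for the difference. The smoke change was called above the air change for 1 Notch gene (by omission 1, 0, 0 and 0) and below it for 1 (by omission 2, 0, 0 and 0). These were HES1, a Notch effector that fell in smoke (-0.33) and in air (-0.87), and its relative HES2, which did not pass in smoke (-0.03) and rose in air (0.69), both named after their values were seen. Of 20 ion channel and transporter genes, 2 rose (by omission 3, 2, 1 and 2) and 6 fell (by omission 6, 4, 2 and 3). AQP3, a basolateral water and glycerol channel, had 13873, 11868, 13952 and 14662 after 1 day and 8183, 7687, 9879.6 and 9357 at recovery and fell by 0.63 ± 0.07 (SE, adjusted p = 0.0022), against 0.06 in air. The AQP3 difference of -0.69 (adjusted p = 0.0023) was kept in every omission of an animal. KCNMA1, the large-conductance potassium channel, fell (-1.73, adjusted p = 0.0060), and ATP12A, a proton pump that acidifies airway liquid, rose (1.06, adjusted p = 0.0090), both in the direction they took in air (-1.11 and 0.74). Of 16 tight junction genes, 4 rose (by omission 4, 3, 1 and 1), CLDN7, a claudin (0.61, adjusted p = 0.0019), among them, and 2 fell (by omission 1, 1, 1 and 1), one being PARD3, a polarity protein (-0.53, adjusted p = 0.0027). The shares over all genes were 13.9% higher and 13.1% lower, and the ion channel rises and tight junction falls are near them.

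Splicing genes included changes that were tight across animals. SRSF5, an SR protein of splice site choice, had 2456, 2326, 2596 and 2501 after 1 day and 519, 533, 692 and 675 at recovery. The groups lay far apart, and SRSF5 fell 4.11-fold, a log2 change of -2.04 ± 0.08 (SE, adjusted p = 0.00013), against -1.18 in air, a difference of -0.86 (adjusted p = 0.00024). SRSF6, a related SR protein, fell by 1.23 in smoke, with -0.59 in air, and PNISR, a speckle protein, by 0.99, with -0.19 in air. CLK1, a kinase that phosphorylates SR proteins, had 270.2, 260.2, 309 and 309 after 1 day and 572, 729, 716 and 685 at recovery and rose by 1.23 ± 0.09 (SE, adjusted p = 0.00089). RSRP1, a nuclear arginine- and serine-rich protein named after its values were seen, rose by 1.21 ± 0.13 (SE, adjusted p = 0.0018). Of 29 genes, 6 rose (by omission 6, 4, 3 and 3) and 8 fell, and 7 lay above (by omission 7, 4, 2 and 2) and 8 below the air change. SRSF5 and PNISR kept the call for the difference in each omission. SRSF6 lost it without S3 (adjusted p = 0.075), CLK1 without S3 (adjusted p = 0.058) and RSRP1 without S4 (adjusted p = 0.055). The values take all transcripts of a gene together, so isoforms were not compared.

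Few clock genes were called in smoke. Of 18 tested, NPAS2, NR1D1 and PER1 fell (by omission 3, 3, 2 and 1; PER1 lost without S4 at adjusted p = 0.052) and none rose in smoke, 5 rose and 2 fell in air, and 6 had a smoke change called below the air change (by omission 6, 3, 1 and 3). The share that fell in smoke is near the 13.1% over all genes. NPAS2, an activator of the clock, changed by -0.9998 (adjusted p = 0.0020) in smoke and -0.82 in air. NR1D1, the repressor REV-ERB alpha, fell in smoke (-0.92, adjusted p = 0.010, lost without S3 or S4 at adjusted p = 0.065 and 0.057) and did not pass in air (0.23, adjusted p = 0.32). Its difference (-1.14, adjusted p = 0.0088) was lost without S3 (adjusted p = 0.12) or S4 (0.058). The repressor BHLHE40 and the period gene PER3, both named after their values were seen, rose in air (1.11 and 0.96) and did not pass in smoke (0.12 and -0.02). Their differences were -0.99 (adjusted p = 0.00051) for BHLHE40 and -0.98 (adjusted p = 0.013) for PER3, the second lost without S2 (adjusted p = 0.051) or S3 (0.079). The time of day at which cultures were collected is not stated in the labels.

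Other lists had shares of calls near or below those over all genes. Of 31 cytosolic ribosomal protein genes, 1 rose (by omission 7, 1, 0 and 0) and 1 fell (by omission 0, 0, 0 and 0). Of 24 nuclear genes of the respiratory chain, 1 rose (by omission 3, 1, 1 and 1) and 4 fell (by omission 4, 2, 2 and 2), the rise being COX7A2, a small subunit of complex IV (0.71, adjusted p = 0.0029), and one of the falls UQCRC1, a core protein of complex III (-0.45, adjusted p = 0.0039). COX7A2 rose more than in air (0.64, adjusted p = 0.0066), a call lost without S3 (adjusted p = 0.058) or S4 (0.064). The p53 target list had 2 rises (by omission 2, 2, 1 and 1) and 1 fall (by omission 1, 2, 0 and 0) among 19, and metallothionein and zinc transporter genes 1 rise (by omission 2, 1, 1 and 1) among 8. Of 18 DNA methylation and demethylation enzymes, 2 fell (by omission 3, 2, 1 and 1) and none rose (by omission 0, 0, 0 and 1). DNMT1, the methyltransferase that follows replication, had 973, 593, 804 and 856 after 1 day and 599, 466, 441 and 419 at recovery (-0.74, adjusted p = 0.0051), with -0.44 in air and no call for the difference (-0.30, adjusted p = 0.18).

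The 10 genes with the smallest p for the difference between the smoke and the air change, 5 in each direction, are given in 3 sets and drawn in part in the plot of levels by group. In the first, every smoke culture stood above every air culture after 1 day, and the ranges of smoke and air overlapped at recovery. KLF6, an immediate early zinc finger factor, had 1909.6, 2306, 1358 and 1372 after 1 day and 855, 1455, 743 and 639 at recovery in smoke. In air it had 594, 776, 555 and 509.6 after 1 day and 912, 1358, 654 and 756 at recovery. It fell by 0.95 ± 0.09 (SE, adjusted p = 0.0016) in smoke and rose by 0.56 (adjusted p = 0.0045) in air, the recovery levels of smoke and air overlapped, and the difference was -1.51 (adjusted p = 3.8e-05). HNRNPDL, an RNA-binding protein that regulates its own splicing, had 1982, 1368, 1590.5 and 1676 after 1 day and 1129.9, 919, 1176 and 1072 at recovery in smoke. Its counts in air were 1109, 775, 909.7 and 925 after 1 day and 1424, 1000.0, 1515 and 1331 at recovery. It fell by 0.62 ± 0.08 (SE, adjusted p = 0.0027) in smoke and rose by 0.50 (adjusted p = 0.0031) in air, and the difference was -1.11 (adjusted p = 3.8e-05). Although the ranges overlapped at recovery, HNRNPDL was then lower in smoke than in air within every animal, while KLF6 was higher in some animals and lower in others.

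In the second, the gene rose in air and every air culture stood above every smoke culture at recovery. CYP26A1, above, is one of them. EMP1, an epithelial membrane protein, had 317, 390.2, 228 and 305 after 1 day and 303, 303, 239 and 320.1 at recovery in smoke, higher in 2 of 4 animals (-0.07, adjusted p = 0.65). In air it had 307, 312, 206 and 249 after 1 day and 749.9, 811, 577 and 739.6 at recovery (1.43, adjusted p = 0.00012), without overlap. The difference was -1.50 ± 0.11 (SE, adjusted p = 1.3e-05). TFCP2L1, a transcription factor of the grainyhead-like family, had 2368, 2571, 2276 and 2187 after 1 day and 1519, 2056, 2034 and 1713 at recovery in smoke. The air cultures had 1766, 2118, 2101 and 1804 after 1 day and 3417, 5506, 4524 and 4509.7 at recovery, so that every air culture at recovery stood above every smoke and 1-day air culture. After 1 day every smoke culture had stood above every air culture. It fell by 0.37 ± 0.09 (SE, adjusted p = 0.018) in smoke, a call lost without S4 (adjusted p = 0.080), rose by 1.19 (adjusted p = 0.00021) in air, and differed by -1.56 ± 0.11 (SE, adjusted p = 1.3e-05).

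In the third, the gene rose in smoke and did not rise in air. AGR3, a disulfide isomerase family member of ciliated cells, had 989, 1152, 1136 and 1277 after 1 day and 1870.0, 2297, 2221 and 3008 at recovery in smoke (1.03, adjusted p = 0.00083). In air it had 1142, 1233, 1284 and 1406 after 1 day and 1278, 1284, 1211 and 1437 at recovery (0.04, adjusted p = 0.62), a difference of 0.99 ± 0.10 (SE, adjusted p = 8.6e-05). TMEM26, a membrane protein, had 86.6, 42.8, 195 and 169.9 after 1 day and 305, 96.3, 457 and 563 at recovery in smoke (1.48, adjusted p = 0.0017), overlapping between the groups, with S2 lowest at both times. Air cultures had 113, 80.6, 338 and 312 after 1 day and 129.7, 44.4, 196 and 202 at recovery (-0.51, adjusted p = 0.068), a difference of 1.99 ± 0.23 (SE, adjusted p = 0.00024). TOB1, an antiproliferative protein, had 364, 401, 394 and 374 after 1 day and 503, 610.2, 639 and 554 at recovery in smoke (0.58, adjusted p = 0.0036), with -0.29 in air and a difference of 0.87 (adjusted p = 8.6e-05). RHOT1, a GTPase that moves mitochondria, had 341, 423, 337 and 327 after 1 day and 484, 619.7, 541 and 569 at recovery (0.63, adjusted p = 0.0034), with -0.27 in air and a difference of 0.91 (adjusted p = 0.00022). RCN2, a calcium-binding protein of the endoplasmic reticulum, had 220.4, 233, 271 and 271 after 1 day and 396, 467, 469.9 and 553 at recovery (0.91, adjusted p = 0.0016), with 0.05 in air and a difference of 0.86 (adjusted p = 0.00023). Smoke groups did not overlap for AGR3, TOB1, RHOT1 and RCN2. For AGR3 and TMEM26 the smoke culture stood below the air culture after 1 day and above it at recovery within every animal. All 10 genes kept the call for the difference without any single animal and under scaling by library totals.

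**Figure D5:**
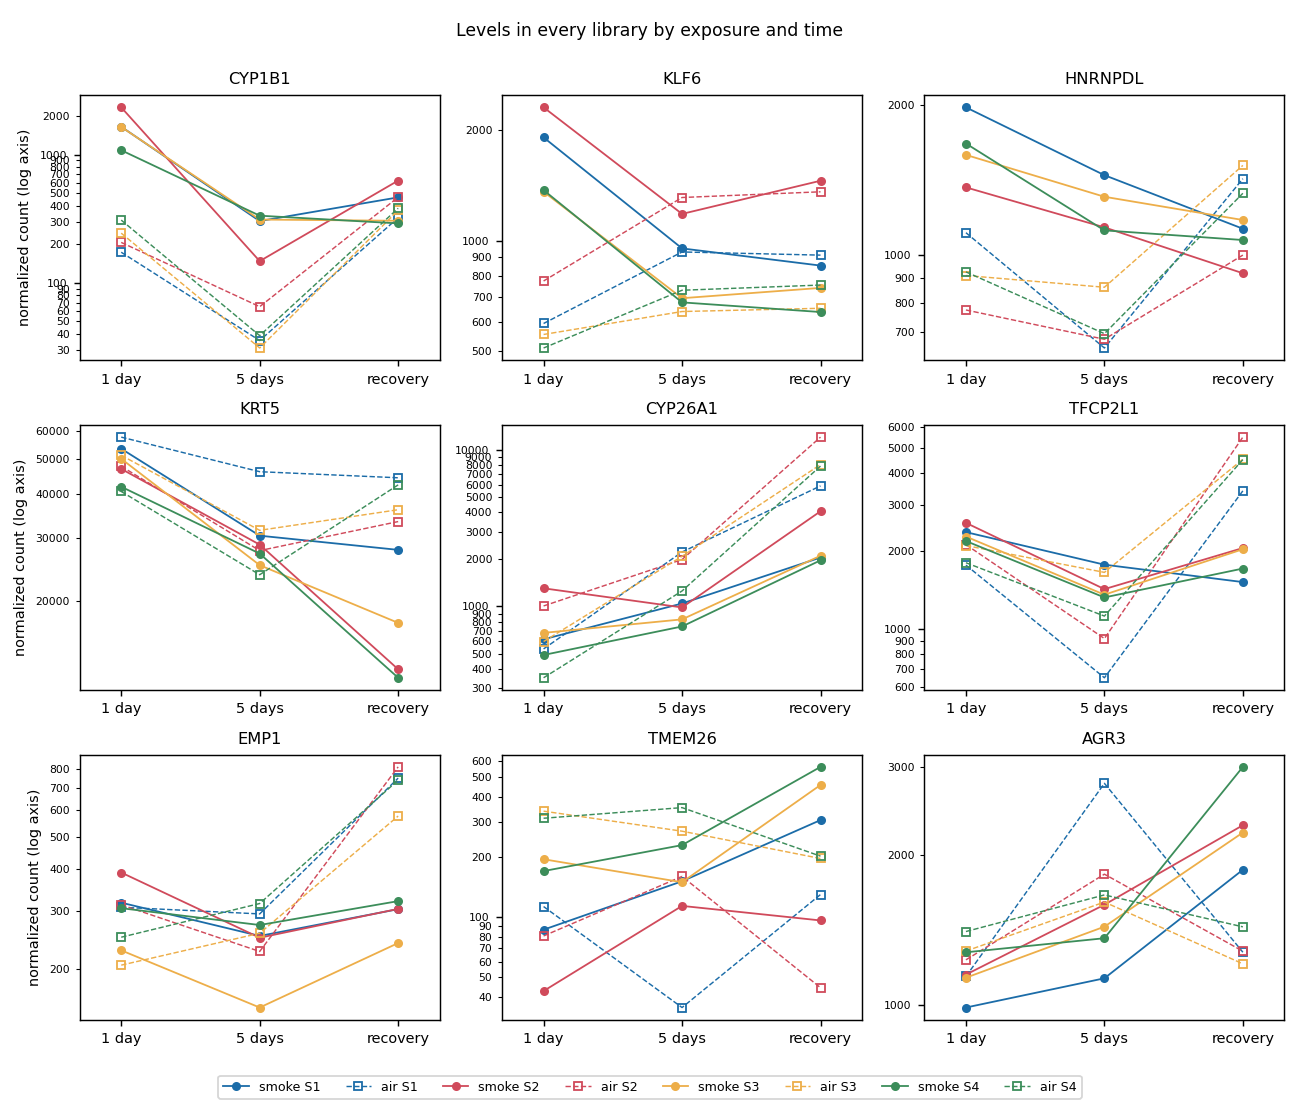
Normalized counts (log axis, a separate scale per gene) of 9 genes in all 24 libraries by time, with filled circles and solid lines for smoke, open squares and dashed lines for air and 1 colour per animal. CYP1B1, KLF6 and HNRNPDL start higher in smoke and overlap the range of air levels at recovery, where HNRNPDL is lower in smoke within every animal. KRT5 ends lower in smoke, CYP26A1, TFCP2L1 and EMP1 end higher in air, and AGR3 and TMEM26 rise in smoke.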

How the data were processed

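RNA was sequenced from 24 cultures, poly-A selected, per the labels' protocols. FastQC, Trim Galore, Bowtie2 and RSEM are named in the submitters' processing notes, without versions, and no source used here gives the genome build or annotation. The authors deposited a table named as raw counts, yet it holds fractional values whose median ratio to the geometric mean over libraries is 1.01 in every library, so they were treated as a normalized signal ("normalized counts"). Approximate depths divide a library's total by its smallest step, the value of 1 read. Low values fell near whole multiples of that step in 78.4 to 80.9% of cases in the 8 libraries, so whole reads were not recovered. Whether counting used strand is not stated, so reads of overlapping antisense genes cannot be told apart.

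Log2(value + 1) was fitted with limma 3.58.1 (R 4.3.3, trend, moderated variances, two-sided) to the 8 smoke libraries, the 8 air libraries, and all 16 for the difference, each with the animal as a block. Same-numbered libraries come from the same animal, and their deviations from the group means correlated at 0.55 to 0.71, against -0.39 to -0.04 between animals. P-values in smoke and in air measure the spread of the change between these 4 animals, with variances moderated over genes. Those for the difference rest on the residual spread of the 16 libraries around group and animal. Symbols came from the table for 23817 genes and from the reference gene names for 720 more.

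Named genes are the 12 largest changes in each direction (mean of at least 50, adjusted p under 0.05, same sign in 4 of 4 animals), the 5 smallest p in each direction for the difference, the 4 smallest p of each of 39 gene lists, and a few genes always considered; not every one is given. The members and lists were chosen with earlier results of these data known. Sequences, coordinates and a few list members are not reported here.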

Additional observations from a re-analysis of the deposited data

Results flagged for a closer look

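In 15 of 192 groups of 4, the highest or lowest value stood apart from the other 3 by Dixon's test at the 95% level, where chance alone flags about 1 in 20 groups. After 1 day of smoke, S2 was high for ADM (223 normalized counts, next highest 60.5), SPAG4 (89.7, next 10.1) and RHOT1 (423, next 341), and S4 was high for COL10A1 (339, next 27.9). At recovery, S1 was high for DUOX2 (2293), GNG2 (202) and FOXM1 (43.1), S2 for SPAG4 (232) and CYP26A1 (4055), and S3 for CFP (155). Among the changes per animal, S2 stood apart for CDT1 (-0.48 on the log2 scale, the smallest fall), PIGR (-0.87, the largest fall) and CXCL3 (2.80, the largest rise), and S3 for MANF (0.10, the smallest rise). 1 library of the 1-day smoke group had a normalized total of 13.5 M, the others lying close together.

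The change from 1 day to recovery differed between smoke and air, by the test of the difference itself (limma, adjusted p under 0.05), for 64 of 148 named genes. HES1 and HES2, also named in the text, were outside this tally. The smoke change lay above the air change, on the log2 scale, for TMEM26 (1.99), PFKFB4 (1.77), CRELD2 (1.41), PDIA4 (1.06), HSPA5 (1.01), AGR3 (0.99), MANF (0.95), RHOT1 (0.91), TOB1 (0.87), RSRP1 (0.86), RCN2 (0.86), HSPH1 (0.73), P4HA1 (0.72), COX7A2 (0.64), CLK1 (0.60), DNAJB11 (0.60), CHORDC1 (0.58), JUNB (0.49), AGR2 (0.41) and SC5D (0.37). It lay below for CYP1B1 (-2.75), CYP26B1 (-2.75), CYP26A1 (-2.07), SLC7A5 (-1.64), EGR1 (-1.57), TFCP2L1 (-1.56), KLF6 (-1.51), EMP1 (-1.50), MYC (-1.47), RARB (-1.46), COL4A2 (-1.40), DSG3 (-1.37), JUN (-1.37), KRT5 (-1.19), NR1D1 (-1.14), HNRNPDL (-1.11), PKP1 (-1.11), COL12A1 (-1.11), NGFR (-1.09), BHLHE40 (-0.99), PER3 (-0.98), ITGB4 (-0.96), COL17A1 (-0.95), LAMA3 (-0.95), KIF20A (-0.94), SRSF5 (-0.86), PLEC (-0.83), TPX2 (-0.81), PNISR (-0.81), DSC3 (-0.77), BAG3 (-0.75), SRXN1 (-0.75), DNAJB1 (-0.70), AQP3 (-0.69), SRSF6 (-0.64), FERMT1 (-0.63), RARA (-0.62), ERRFI1 (-0.49), S100A2 (-0.49), LAMB3 (-0.46), PER1 (-0.44), JUP (-0.42), FOSL2 (-0.36) and RARG (-0.35). The call was lost in at least 1 of the 4 omissions of an animal for AGR2, CHORDC1, CLK1, COL12A1, COL4A2, COX7A2, CYP26B1, DNAJB11, DSC3, ERRFI1, FERMT1, FOSL2, ITGB4, JUNB, JUP, KIF20A, LAMA3, LAMB3, NR1D1, P4HA1, PER1, PER3, PFKFB4, RARA, RARG, RSRP1, S100A2, SC5D, SRSF6 and TPX2.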

How the results depend on the processing

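No called change of the 148 named genes tallied below changed sign under the settings checked gene by gene. Some changes that did not pass the test did so, EMP1, SCGB1A1 and PDIA4 in smoke among them. Fits without the block that also left out 1 library were not checked gene by gene. Calls in smoke, for the difference and in air numbered 3566, 1229 and 3663. An added log2 fold change of at least 1 left 543, 118 and 480. With no replicate block they were 839, 69 and 829, and 15 to 1261, 17 to 215 and 152 to 603 when 1 library was also left out. Leaving out 1 animal gave 1136 to 3795, 203 to 1369 and 2102 to 3086, lowest in smoke and for the difference without S3 or S4. Leaving out the 1-day air library of S1, a setting added after the data were seen, gave 831 and 3088 for the difference and air. A fit to all 24 libraries with the block gave 2920, 178 and 1818, and the same fit less S1's air library of day 5, also added later, gave 5677, 1337 and 4241. Without the variance trend they were 2227, 863 and 2402, and at an adjusted p under 0.1 4941, 2058 and 4966. Scaling by totals moved the split of the difference from 509 above and 720 below to 1064 and 411, and that of air from 1899 higher and 1764 lower to 1241 and 2376. Upper quartile scaling moved the smoke split from 1837 and 1729 to 1506 and 2114. Pseudocounts of 0.5 and 5, no filter, the stricter filter and the animal as a random effect kept each of these counts within 1.5 times. The cause was not tested for any of these shifts. Fewer samples enter whichever animal is left out, and what this did to the calls was not tested either. The tally of 148 named genes leaves out HES1 and HES2. Of these 148, 128 were called in smoke and 102 of them in all 4 omissions of an animal. For the difference the numbers were 64 and 34, and FOSL2 lost the call in each omission. Without the block 66 lost the call in smoke and 47 that for the difference. Under scaling by totals 1 and 8 did so. Depth per library is known only approximately, so counting error was not computed, and changes of genes near the filter are the least precise.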
